A study of Mus musculus with 26 samples.

Results

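The deathless variant of the S49 cell line, written D-, was compared after 2 h with the cyclic AMP (cAMP) analogue 8-CPT-cAMP and without treatment, on 3 arrays of treated D- cells and 4 arrays of untreated D- cells. S49 is a mouse T lymphoma line grown in suspension, and D- is a variant whose cells survive a rise of cAMP that kills the parental wild-type (WT) cells. The arrays belong to a series of 26, in 8 groups, which also holds D- cells after 6 and 24 h (3 arrays each) and WT cells at the same times (3 arrays each, and 4 untreated). Both groups compared here carry the D- background and were kept in the same medium with horse serum. They differ in the analogue, for which the labels give 100 mM, a dose that may be a unit error. The labels place the untreated cells at time 0, so the groups differ in time as well. The series holds no D- cells kept for 2 h without the analogue, so the effects of the analogue and of time cannot be told apart. The labels call the replicates biological without describing separate cultures, and do not say from how many clones D- was grown. The spread behind each p-value is that among the 26 arrays alone, pooled within the 8 groups, and it may be technical. It need not match the spread of the D- arrays compared. Every gene was described that had a probe set with 1 gene symbol and a log2 intensity of 5 or more on at least 3 of the 26 arrays, which gave 7435 of 12393 genes with such a probe set on the array, and 7134 of them also reached 5 on at least 3 of the 7 arrays compared.

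cAMP binds the regulatory subunits of protein kinase A (PKA) and frees its catalytic subunits, which phosphorylate the transcription factor CREB and its relatives. These proteins bind a short DNA element, the cAMP response element (CRE), and switch on a first wave of genes, many of which encode transcription factors or inhibitors that later damp the signal. In T cells cAMP is known as a brake on receptor signalling and growth, and S49 cells have long served to study how PKA stops the cycle and causes death. 8-CPT-cAMP enters cells and activates PKA directly, without a receptor or adenylyl cyclase.

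Values are log2 of the authors' GCRMA intensities, changes carry the standard error (SE) of a limma fit over all 26 arrays, and a gene is called when its p-value, adjusted by Benjamini-Hochberg over 12724 probe sets, is under 0.05. Where 1 group mean lay under log2 5, the change is a bound, given as "at least", from the brighter mean to 5. Across probe sets, treated arrays correlated at r between 0.986 and 0.993 and untreated arrays between 0.987 and 0.994. All 26 arrays were split into 2 clusters by the sign of the first axis of their deviations from group means. Such a sign split gives 2 classes in any data, and the labels do not name them. The axis carried 38.8% of the within-group variance. Cluster 1 held replicate 1 of every treated group and replicates 1 and 2 of the untreated D- and WT groups. Of the 7 arrays compared, it held treated replicate 1 and untreated replicates 1 and 2, and cluster 2 the other 4. The clusters were thus shared unequally between the compared groups, and what they reflect was not tested. As a measure of intact RNA, the control probes at the 3' end of Gapdh less those at its 5' end gave a log2 difference of -0.090 ± 0.064 in treated cells (SD, n = 3) and of -0.038 ± 0.084 in untreated cells (SD, n = 4). Of 9 T cell marker genes on the array 7 reached log2 5 on at least 3 of the 7 arrays, while Cd247 reached it on 1 array and Cd5 on none, and by the same rule 3 of 8 B cell, 2 of 10 myeloid, 1 of 6 erythroid and 3 of 10 stromal markers reached it. The summed T cell marker intensity was 17355 to 19794 in treated and 23854 to 28304 in untreated cells, without overlap, with an exact two-sided permutation p = 0.0571, the smallest that 3 against 4 arrays allow. The B cell, myeloid, erythroid and stromal sums overlapped between the groups (p from 0.4 to 0.914 by the same test), the stromal one at 9429 to 15645 in treated and 10787 to 13871 in untreated cells. Thy1 is counted in both the T cell and the stromal sum. The sums add linear intensities, so the brightest genes weigh most in them. Of the 8 T cell markers tested, Bcl11b, Thy1, Lat and Cd3d were called lower and Zap70 higher, while Cd3e, Cd3g and Cd247 did not pass. The call for Thy1 ended without untreated replicate 4 (-0.60) or treated replicate 1 (-0.54). In such bulk RNA, fewer cells of a type and less RNA per cell cannot be told apart.

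The 8-base CRE, TGACGTCA, which reads the same on both strands, was looked for in RefSeq promoter windows of 300 bases, from 250 before to 50 after each gene's start (mouse build GRCm38.p6). In at least 1 window of the gene it was found in 53 of the 541 genes called higher that had a window (9.80%), in 18 of 804 genes called lower (2.24%), in 226 of 6109 genes tested (3.70%) and in 1.79% of all 32851 windows. The short form, TGACG on either strand, which the full element contains, was found in 51.6% of genes called higher, 34.0% of genes called lower, 38.1% of genes tested and 20.8% of all windows. Among genes higher by at least 2-fold the full CRE was present in 10 of 161 (6.21%). These shares describe letters in a window and do not show binding. Among the 25 largest rises and the core genes called higher, Dusp1 and Prkar1a held a full CRE. Of the 25 largest rises 23 had a window, while Crem and Vps37b had none and were not searched. Ppp1r15a and Nr4a1 are shown beside Dusp1 and Prkar1a as strong responders, picked after their values were seen. Capitals mark the full CRE in Dusp1 (chr17:26508423-26508722, minus strand), Ppp1r15a (chr7:45526219-45526518, minus strand) and Prkar1a (chr11:109650699-109650998, plus strand), and the 4 short forms in Nr4a1 (chr15:101266596-101266895, plus strand), each written 5′ to 3′.
Dusp1: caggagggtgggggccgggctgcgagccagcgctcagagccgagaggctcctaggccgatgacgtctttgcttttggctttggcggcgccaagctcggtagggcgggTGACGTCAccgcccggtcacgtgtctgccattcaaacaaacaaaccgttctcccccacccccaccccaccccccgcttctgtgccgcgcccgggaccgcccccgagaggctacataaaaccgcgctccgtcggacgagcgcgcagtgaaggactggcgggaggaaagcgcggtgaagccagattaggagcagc
Ppp1r15a: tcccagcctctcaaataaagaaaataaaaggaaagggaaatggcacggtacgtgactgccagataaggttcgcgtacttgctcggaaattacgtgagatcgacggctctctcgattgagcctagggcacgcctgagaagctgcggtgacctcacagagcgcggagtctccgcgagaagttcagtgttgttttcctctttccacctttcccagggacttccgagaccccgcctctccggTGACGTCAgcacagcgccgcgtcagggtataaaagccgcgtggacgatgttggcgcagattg
Prkar1a: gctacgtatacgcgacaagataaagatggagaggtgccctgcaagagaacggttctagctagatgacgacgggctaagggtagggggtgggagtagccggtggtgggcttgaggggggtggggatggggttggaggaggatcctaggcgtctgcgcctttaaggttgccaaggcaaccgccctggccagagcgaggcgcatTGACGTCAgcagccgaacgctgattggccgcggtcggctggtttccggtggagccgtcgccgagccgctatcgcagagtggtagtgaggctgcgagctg
Nr4a1: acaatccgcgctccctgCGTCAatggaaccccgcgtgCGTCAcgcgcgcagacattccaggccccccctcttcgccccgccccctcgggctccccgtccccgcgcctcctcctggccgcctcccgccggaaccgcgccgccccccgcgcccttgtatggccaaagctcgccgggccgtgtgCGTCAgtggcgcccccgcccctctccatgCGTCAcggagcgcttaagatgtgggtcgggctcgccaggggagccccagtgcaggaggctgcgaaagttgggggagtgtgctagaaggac
The full CRE began 143 bases before the start of Dusp1, 12 before that of Ppp1r15a and 49 before that of Prkar1a in this window, the second of 2 overlapping windows of that gene that hold it.

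After 2 h, 1658 of the 7435 genes had passed the test (22.3%), 673 higher (9.05%) and 985 lower (13.2%) than in untreated cells. Lower genes were the more numerous but the higher ones moved further. A change of at least 2-fold was seen for 210 higher and 218 lower genes, of at least 4-fold for 85 and 21, of at least 8-fold for 33 and 6, and of at least 16-fold for 13 and 1. In 2460 genes (33.1%) the 3 treated arrays did not overlap the 4 untreated ones, and 1559 of these were called. Of the 682 called genes with more than 1 tested probe set, 241 had every probe set called the same way and 39 had at least 1 called the other way. The median change of all genes tested was -0.02. Within array cluster 1 (3 of the 7 arrays, with 2 residual degrees of freedom over all groups) 447 genes passed, 227 higher and 220 lower, and within cluster 2 (4 arrays) 1655 passed.

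**Figure D1:**
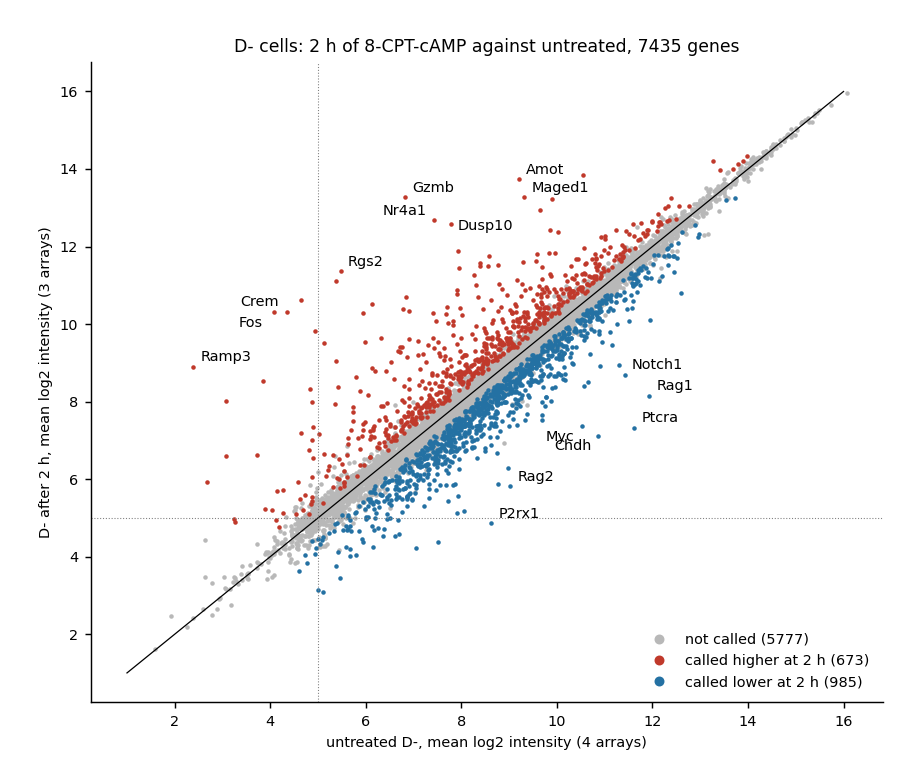
Each point is 1 of 7435 genes, with its mean log2 intensity in D- cells after 2 h (vertical axis, 3 arrays) against untreated D- cells (horizontal axis, 4 arrays). Red genes were called higher (673) and blue genes lower (985), the line marks equality and the dotted lines log2 5, and the points farthest above the line, such as Gzmb and Crem, lie farther from it than those farthest below, such as Ptcra and Rag1.

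Most of the tested genes long known as cAMP and CREB targets rose. Of 19 tested members of that list 13 rose, 1 fell and 5 did not pass, with a median log2 change of 2.15, and 73.7% passed against 22.3% of all genes. Rgs2, which speeds the shut-off of G protein signals, had log2 values of 11.4, 11.1 and 11.6 in treated cells, against 5.56, 5.26, 5.38 and 5.71 in untreated cells. All 3 treated arrays lay far above all 4 untreated ones, and Rgs2 was 59.3-fold higher, a log2 change of 5.89 ± 0.33 (limma adjusted p = 2.26e-11). Crem encodes the CREB relative that yields the cAMP-inducible repressor ICER. Its values were 9.93, 10.4 and 10.6 in treated cells, against 4.60, 4.15, 4.36 and 4.31 in untreated cells, all under log2 5, so that the rise was at least 5.31 (limma adjusted p = 1.09e-08). Fos, a subunit of the AP-1 transcription factor, showed the same picture, with 10.2, 10.2 and 10.5 in treated cells, against 4.63, 4.54, 4.32 and 2.86 in untreated cells, a rise of at least 5.31 (limma adjusted p = 8.42e-11). Nr4a1, an orphan nuclear receptor of the immediate-early class, had 12.3, 13.0 and 12.7 in treated cells, against 7.13, 7.12, 7.78 and 7.64 in untreated cells. It was already well above 5 without treatment and rose by 5.26 ± 0.29 (limma adjusted p = 1.74e-11). Nfil3, a basic leucine zipper repressor, rose by at least 4.83, with 9.26, 10.1 and 10.1 in treated cells, against 5.87, 5.04, 3.99 and 4.82 in untreated cells.

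Further members of the list rose less. Per1, a component of the circadian clock, averaged 9.02 ± 0.06 in treated (SD, n = 3) and 6.53 ± 0.33 in untreated cells (SD, n = 4), a change of 2.49 ± 0.31. Pde4b, a phosphodiesterase that breaks down cAMP, had 8.25, 6.91 and 6.32 in treated cells, against 4.90, 5.09, 5.24 and 4.84 in untreated cells. Its treated values were scattered but all above the untreated ones, and the change was 2.15 ± 0.34 (limma adjusted p = 7.98e-05). The kinase gene Sgk1 rose by 2.97 ± 0.34. Sik1, a kinase that restrains the CREB coactivators, Junb, an AP-1 subunit, and Ier2, an immediate-early gene, were picked after their values were seen and rose by 2.76 ± 0.43, 2.13 ± 0.39 and 1.63 ± 0.23. The member that fell was the stress sensor gene Gadd45b, also picked after its value was seen, with -1.03 ± 0.29. Its call ended without untreated replicate 1 (-0.80) and without treated replicate 2 (-0.82) or 3 (-0.98).

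Feedback inhibitors of signalling moved in both directions, with more rises than falls. In the list of RGS, dual-specificity phosphatase, Sprouty and SOCS genes 4 of 11 tested members rose and 1 fell (45.5% against 22.3% of all genes), with a median of 0.17. Dusp10, which inactivates the stress kinases JNK and p38, had 12.0, 12.8 and 12.9 in treated cells, against 6.99, 7.80, 8.29 and 8.04 in untreated cells, a rise of 4.79 ± 0.31. Dusp1, a related phosphatase of MAP kinases, had 10.2, 10.4 and 10.3 in treated cells, against 5.98, 6.21, 5.70 and 5.90 in untreated cells. Its arrays were tight within each group, and it rose by 4.33 ± 0.42 (limma adjusted p = 9.14e-08). Spred2, an inhibitor of RAS to ERK signalling, rose by 0.96 ± 0.20. Dusp2, another MAP kinase phosphatase, instead fell, with 5.39, 5.82 and 4.72 in treated cells, against 7.17, 7.33, 7.39 and 6.96 in untreated cells, a change of -1.91 ± 0.23. The number of members that fell was 2 without untreated replicate 3 or treated replicate 1, and 3 without untreated replicate 4.

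Among the genes that make, carry or read cAMP the share that passed was close to that of all genes. Of 24 tested genes for cAMP synthesis, PKA, its anchors, phosphodiesterases and CREB coactivators, 3 rose (Crem, Pde4b and Prkar1a) and 2 fell (20.8% against 22.3%), with a median of 0.07. Prkar1a, the regulatory subunit of PKA that binds cAMP, had 11.7 in each of the 3 treated arrays, against 10.8, 10.6, 10.9 and 10.9 in untreated cells. The rise was small but clear of the spread, at 0.88 ± 0.10 (limma adjusted p = 1.33e-06). Prkaca, the catalytic subunit, did not pass, with 0.15 ± 0.16. Of the adenylyl cyclases, which make cAMP, Adcy6 fell with -1.18 ± 0.17 and Adcy7 with -0.62 ± 0.17. The call for Adcy7, and with it the count of 2, ended without treated replicate 1 (-0.48) or 2 (-0.56).

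Several of the largest rises lay outside the classic targets. Gzmb, the granule protease granzyme B of killer T cells, had 15.0, 12.5 and 12.3 in treated cells, against 10.9, 4.46, 5.92 and 6.00 in untreated cells. Replicate 1 was the highest array of its group in both, and the fitted change was 6.45 ± 1.07 (limma adjusted p = 0.00011). Cd53, a leukocyte tetraspanin, had the same arrangement, with 10.6, 8.60 and 7.98 in treated cells, against 7.67, 4.69, 4.70 and 4.47 in untreated cells, and a change of 3.67 ± 0.78 (limma adjusted p = 0.00141). Tceal1, of a family related to a transcription elongation factor, rose by at least 5.61, with 10.8, 10.6 and 10.4 in treated cells, against 4.34, 4.18, 5.30 and 4.71 in untreated cells. Ramp3, a partner protein of calcitonin-type receptors, had 9.31, 8.79 and 8.60 in treated cells, against 2.24, 2.64, 2.20 and 2.45 in untreated cells, near the bottom of the scale, a rise of at least 3.90. Olig3, a helix-loop-helix factor best known from the nervous system, rose by 4.40 ± 0.31, Amot, an angiomotin that binds the coactivator YAP, by 4.54 ± 0.71, and Maged1, an adaptor of the MAGE family, by 3.96 ± 0.28.

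Membrane and nuclear proteins were also among the 25 largest rises. Tnfrsf18, the costimulatory receptor GITR, had 9.13, 9.58 and 9.82 in treated cells, against 5.80, 5.48, 4.97 and 4.29 in untreated cells, a rise of 4.38 ± 0.42. Abcb1a, the drug efflux pump P-glycoprotein, rose by 3.55 ± 0.19, St8sia1, the sialyltransferase that makes the ganglioside GD3, by 3.44 ± 0.17, and Vps37b, a subunit of the endosomal sorting complex ESCRT-I, by 3.62 ± 0.31. Lmna, which encodes the nuclear lamins A and C, rose by at least 3.54, with 8.85, 8.40 and 8.36 in treated cells, against 4.00, 4.00, 3.34 and 4.03 in untreated cells. Nabp1, a single-stranded DNA binding protein, rose by 3.95 ± 0.36. Tex2 had the lowest adjusted p of the genes named here, with 11.7, 11.4 and 11.2 in treated cells, against 8.06, 8.15, 7.68 and 7.90 in untreated cells, a rise of 3.50 ± 0.13 (limma adjusted p = 3.72e-14).

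**Figure D2:**
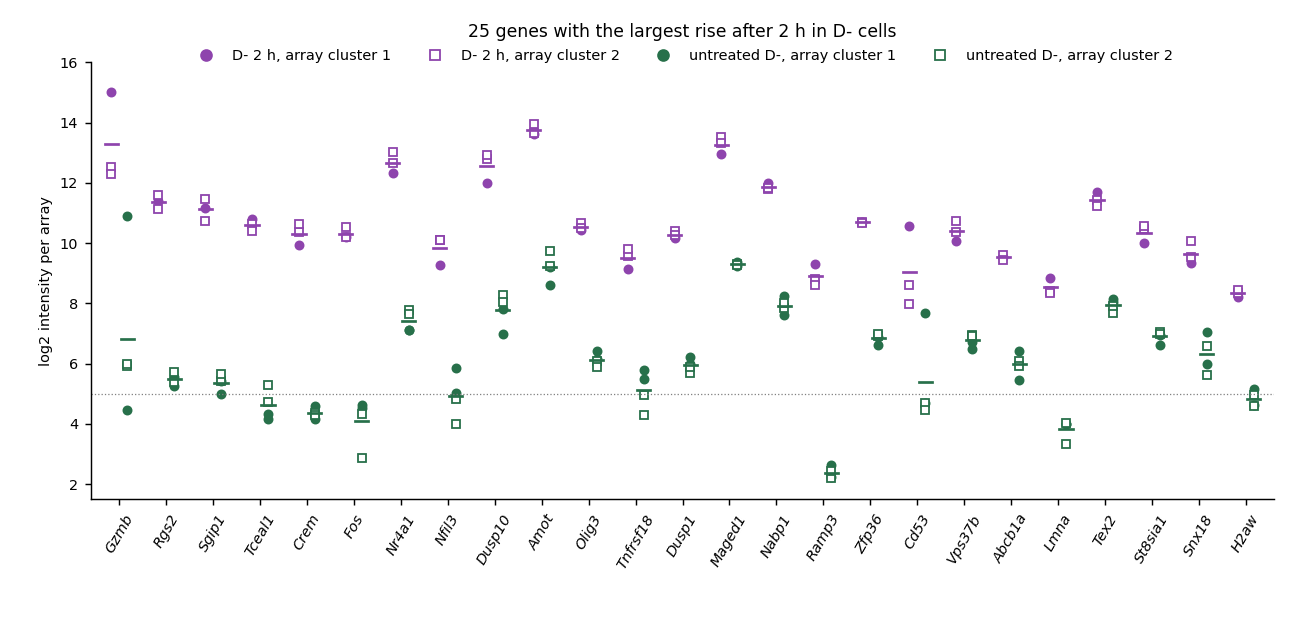
Log2 intensity on each of the 7 arrays for the 25 genes with the largest rise and no overlap between groups, with D- 2 h arrays (purple) left of untreated D- arrays (green), filled circles for array cluster 1, open squares for cluster 2 and a bar at each group mean. Gzmb and Cd53 are the genes in which 1 untreated array, at 10.9 and 7.67, stands far above the other untreated arrays.

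Of 7 tested factors that shorten the life of mRNA or restrain growth 5 rose and 2 did not pass (71.4% against 22.3% of all genes), with a median of 0.96. Zfp36, or tristetraprolin, which binds AU-rich elements and hastens mRNA decay, had 10.7 in each treated array, against 6.61, 6.87, 6.90 and 6.97 in untreated cells, a change of 3.86 ± 0.21. Tob2, of the antiproliferative TOB and BTG family, rose by 2.71 ± 0.24 and its relative Btg1 by 0.96 ± 0.21, while Pdcd4, an inhibitor of translation initiation, rose by 1.20 ± 0.25. Tob1 rose by 0.96 ± 0.31, and its call ended without untreated replicate 1 (0.83) or 2 (0.82) and without treated replicate 2 (0.94) or 3 (0.82).

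Genes known to respond to glucocorticoid hormone moved as well, although no hormone is named in the labels. In this list 7 of 15 tested members rose and 3 fell (66.7% against 22.3% of all genes), with a median of 0.63, and Dusp1, Sgk1 and Per1 stand in the cAMP target list too. Tsc22d3, the glucocorticoid-induced leucine zipper GILZ, had 11.7, 11.8 and 12.0 in treated cells, against 9.23, 9.43, 9.67 and 10.0 in untreated cells, a rise of 2.23 ± 0.19 (limma adjusted p = 1.83e-08). Ddit4, an inhibitor of the growth kinase mTORC1, rose by 2.57 ± 0.32. Those that fell were Nfkbia with -1.36 ± 0.21, Klf13 with -1.17 ± 0.13 and Fkbp5, a chaperone of the glucocorticoid receptor named after its value was seen, with -1.03 ± 0.20. The receptor gene Nr3c1 itself did not pass, with 11.5, 12.3 and 12.1 in treated cells, against 10.9, 11.3, 11.7 and 11.8 in untreated cells, a change of 0.53 ± 0.24 (limma adjusted p = 0.124). It passed without treated replicate 1, at 0.76.

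Other transcription factors went both ways. Of 24 immediate-early, KLF, FOXO and clock factors 7 rose and 3 fell (41.7% against 22.3% of all genes), with a median of -0.13. Id2, an inhibitor of helix-loop-helix factors, had 13.1, 12.8 and 12.9 in treated cells, against 9.79, 9.66, 9.62 and 9.48 in untreated cells, a rise of 3.31 ± 0.28. Foxo1, which drives genes of quiescence and lymphocyte homing, rose by 2.92 ± 0.20 with 11.2, 11.7 and 11.6 in treated cells, against 8.52, 8.74, 8.55 and 8.45 in untreated cells. Klf2, a factor of T cell quiescence, rose by 1.58 ± 0.31 and Nr1d2, a clock repressor, by 1.13 ± 0.14. The members that fell were Klf13, Klf10 and Dbp, of which the last pair were named after their values were seen. Klf10 changed by -1.04 ± 0.27 and lost its call without treated replicate 2 (-0.82), and the change of Dbp, with a treated mean under log2 5, was a bound of -0.62, with its call lost without untreated replicate 2 (fitted -0.74) or treated replicate 3 (fitted -0.76).

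Genes of the immature T cell were among those that fell furthest. Ptcra, the pre-T cell receptor alpha chain of early thymocytes, had 7.73, 6.88 and 7.38 in treated cells, against 11.9, 12.4, 11.0 and 11.2 in untreated cells. It was 19.6-fold lower, a log2 change of -4.29 ± 0.47 (limma adjusted p = 6.27e-07). Rag1 and Rag2 form the recombinase that joins receptor gene segments. Rag1 had 8.37, 7.78 and 8.29 in treated cells, against 12.3, 12.2, 11.6 and 11.7 in untreated cells, a change of -3.79 ± 0.27, and Rag2 had 6.26, 5.28 and 5.89 in treated cells, against 9.20, 9.10, 8.55 and 9.24 in untreated cells, a change of -3.21 ± 0.27. Every treated array of both genes lay more than 2-fold below every untreated one.

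Over the whole T cell list 12 of 30 tested members fell and 2 rose (46.7% against 22.3% of all genes), with a median of -0.27. The summed intensity of the T cell markers was lower in treated cells, as given above. Its markers are all members of this list, so the sum is not a separate observation, and its part in these falls was not tested. Cd2, an adhesion receptor, changed by -2.14 ± 0.30, Bcl11b, the factor that holds T cell identity, by -1.85 ± 0.17 and Lcp2, the adaptor SLP-76, by -1.44 ± 0.20. The rises were in Gata3, a lineage factor, with 1.38 ± 0.26, and Zap70, the kinase that acts at the receptor, with 0.96 ± 0.08, both named after their values were seen. Zap70 is also among the summed markers, and so moved against their sum. Notch1, the receptor that commits cells to the T lineage, had 9.63, 8.19 and 8.27 in treated cells, against 11.8, 11.7, 11.2 and 11.0 in untreated cells, a change of -2.72 ± 0.34 (limma adjusted p = 3.25e-06). Among 14 tested Notch receptors and targets 4 fell (Ptcra, Myc, Notch1 and Notch3, the last with -1.64 ± 0.26), while Hes1, the best-known Notch target, rose by 1.13 ± 0.19 and Maml1, a Notch coactivator, by 0.85 ± 0.25. The call for Maml1 ended without untreated replicate 1 (0.73) or treated replicate 2 (0.78). In this list 42.9% passed against 22.3% of all genes, and the median was 0.06.

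Genes outside the T cell list also fell strongly. Chdh, the choline dehydrogenase of mitochondria, had 6.75, 6.91 and 7.68 in treated cells, against 10.7, 10.6, 11.0 and 11.1 in untreated cells, a change of -3.74 ± 0.25. P2rx1, an ATP-gated ion channel, had 4.94, 4.96 and 4.70 in treated cells, against 8.87, 9.45, 8.14 and 8.04 in untreated cells. Since its treated mean lay under log2 5 the fall was at least 3.63, a bound of -3.63. Il10, an anti-inflammatory cytokine, had 7.08, 5.07 and 5.50 in treated cells, against 9.00, 9.08, 8.42 and 8.60 in untreated cells, a change of -2.89 ± 0.42. Others in this group were Trim2, a ubiquitin ligase, with -2.87 ± 0.26, the adhesion G protein-coupled receptor Adgrg1 with -2.78 ± 0.24, the secreted protein Stc1 with -2.68 ± 0.37, the semaphorin co-receptor Nrp1 with -2.16 ± 0.28, and Wnt5b, a WNT ligand, with -2.08 ± 0.33.

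**Figure D3:**
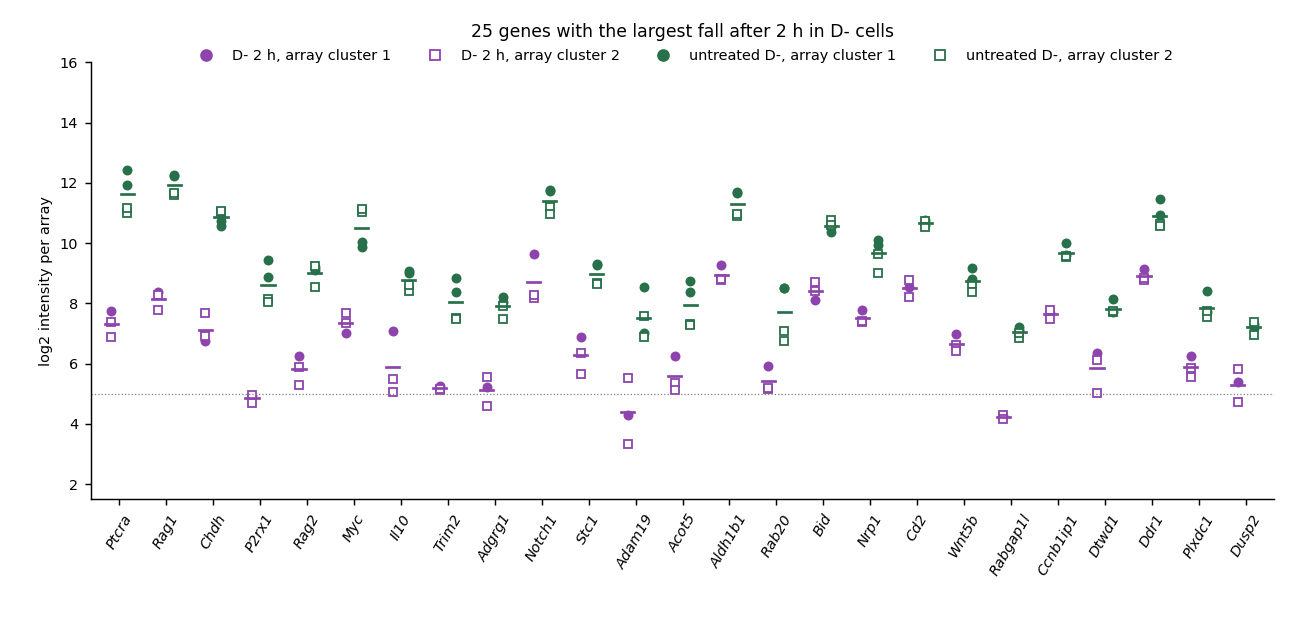
Log2 intensity on each of the 7 arrays for the 25 genes with the largest fall and no overlap between groups, drawn as in the plot of the largest rises, with D- 2 h arrays (purple) left of untreated D- arrays (green). The thymocyte genes Ptcra, Rag1 and Rag2 stand at the left with Chdh and P2rx1, and P2rx1 is at or below log2 5 on all 3 treated arrays.

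Myc, the transcription factor that drives growth, fell at the same time. Its values were 7.03, 7.69 and 7.36 in treated cells, against 10.0, 9.87, 11.0 and 11.1 in untreated cells, 8.94-fold lower with a log2 change of -3.16 ± 0.30 (limma adjusted p = 6.96e-08). Of the 9 tested genes of the MYC, MAX and MXD network Mnt, which opposes MYC, was the member that rose, by 0.72 ± 0.21 (22.2% passed against 22.3% of all genes). Of 38 tested ribosome biogenesis genes, which MYC is known to promote, 8 fell and none rose in the limma fit (11 had an unadjusted p under 0.05), with a median of -0.24. The share of 21.1% that passed was close to the 22.3% of all genes, of which 13.2% were lower. The processing factors Wdr43, Wdr12 and Rrs1 changed by -1.04 ± 0.23, -0.71 ± 0.12 and -0.69 ± 0.12. Without treated replicate 2 the number that fell was 5, and with only the 7 arrays compared in the fit it was 15.

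Few cell cycle genes passed at 2 h. Of 39 tested DNA replication genes 1 passed (2.56% against 22.3% of all genes), and of 38 mitosis genes 4 fell and none rose (10.5%, and 9 had an unadjusted p under 0.05 in limma). The replication gene was Ung, a uracil glycosylase, with 9.12, 8.38 and 8.57 in treated cells, against 10.3, 10.6, 9.67 and 9.76 in untreated cells, a change of -1.39 ± 0.48. Its call ended without untreated replicates 1 (-1.32), 2 (-1.22) or 4 (-1.49) and without treated replicates 2 (-1.23) or 3 (-1.33). The mitosis genes that fell were Birc5, the survivin of the chromosomal passenger complex, with -0.67 ± 0.19, the CDK1-inhibiting kinase Wee1 with -0.64 ± 0.18, the spindle checkpoint gene Bub1b with -0.63 ± 0.19 and the CDK phosphatase Cdc25b with -0.35 ± 0.12. The call ended for Wee1 without treated replicate 2 (-0.51), for Bub1b without treated replicate 1 (-0.52) or 2 (-0.63), and for Cdc25b without any 1 of the 7 arrays but untreated replicate 3 (-0.39 to -0.27). The number that fell was thus 2 without treated replicate 1 and 1 without treated replicate 2. The median change was -0.03 for replication and -0.10 for mitosis genes.

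Among G1 regulators 18.2% passed against 22.3% of all genes. Cdkn1b, the CDK inhibitor p27, had 10.4, 10.5 and 10.5 in treated cells, against 8.83, 9.33, 9.23 and 9.17 in untreated cells, a rise of 1.32 ± 0.30 (limma adjusted p = 0.00249). The D-type cyclins, which open the way out of G1, did not pass, Ccnd2 with 0.29 ± 0.23 and Ccnd3 with -0.37 ± 0.20. Ccnd3 passed without treated replicate 1, at -0.60. The CDK inhibitor genes Cdkn2c and Cdkn2d did not pass either, with 0.24 ± 0.27 and 0.21 ± 0.26. Of 22 tested G1 genes 2 rose, Cdkn1b and the S phase activator E2f3 (0.54 ± 0.11), and 2 fell, the repressive factors E2f4 and E2f6 (-0.86 ± 0.15 for E2f6). E2f4 changed by -0.92 ± 0.32, and its call ended without untreated replicate 2 (-0.99), 3 (-0.89) or 4 (-0.78) and without treated replicate 1 (-0.68), 2 (-1.03) or 3 (-1.05). Of 18 tested p53 targets 3 rose and 5 fell (44.4% against 22.3% of all genes), with a median of -0.25, and Gadd45a, a stress-induced brake on the cycle, rose by 3.10 ± 0.27, with 11.8, 11.5 and 11.2 in treated cells, against 8.98, 8.88, 7.78 and 7.89 in untreated cells. Ddit4 rose too, and Ccng2, a cyclin of arrested cells, rose by 1.26 ± 0.39, a call that ended without untreated replicate 1 (1.20) or 2 (1.19) or treated replicate 2 (1.21) or 3 (1.18). Those that fell were Trp53inp1 with -1.16 ± 0.28, Zmat3 with -0.97 ± 0.21, Fas, described with the death genes, the stress gene Sesn1 with -0.85 ± 0.23 and the DNA polymerase gene Polk with -0.45 ± 0.14, of which Sesn1 was picked after its value was seen. The call for Polk ended without treated replicate 1 (-0.45) or 2 (-0.41), and with the mean of all its probe sets (-0.19).

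The death genes of these surviving cells moved in both directions. Bcl2l11, which encodes the BH3-only killer BIM, had 10.8, 11.1 and 10.9 in treated cells, against 9.34, 9.69, 9.16 and 9.58 in untreated cells. All 3 treated arrays lay above the untreated ones, 5 of its 5 probe sets were called higher, and the change was 1.49 ± 0.22 (limma adjusted p = 2.76e-05). Casp8, the caspase of death receptors, rose by 0.69 ± 0.12. Bid, which links that caspase to mitochondria, had 8.10, 8.43 and 8.69 in treated cells, against 10.4, 10.5, 10.8 and 10.6 in untreated cells, and fell with -2.16 ± 0.14 (limma adjusted p = 1.78e-10). Casp9, the caspase of the apoptosome, fell with -0.81 ± 0.15, a call that ended with the mean of all its probe sets (-0.28), and the death receptor gene Fas fell with -0.92 ± 0.30. The call for Fas ended without untreated replicate 1 (-0.83), 2 (-0.92) or 3 (-0.90) and without treated replicate 2 (-0.95) or 3 (-0.72). With Pdcd4, named above, 3 of 17 tested pro-apoptotic genes rose and 3 fell (35.3% against 22.3% of all genes), with a median of 0.06. Of 16 anti-apoptotic genes 1 rose and 1 fell (12.5%), Mcl1, a guardian of mitochondria, with 11.7, 11.9 and 11.9 in treated cells, against 11.0, 10.8, 11.2 and 11.4 in untreated cells (0.76 ± 0.15), and Birc5. Without treated replicate 2 the number that rose was 2. Of the 6 tested probe sets of Mcl1, 2 were called higher. Bcl2 did not pass, with 0.34 ± 0.15 (limma adjusted p = 0.128).

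In the cytokine receptor and JAK-STAT list 8 of 21 tested members rose and 2 fell (47.6% against 22.3% of all genes), with a median of 0.18, and 4 interferon receptor genes were among those that rose. Ifngr1 and Ifngr2 encode the chains of the interferon gamma receptor. Ifngr1 had 11.7, 11.6 and 11.3 in treated cells, against 9.08, 8.67, 8.58 and 8.71 in untreated cells, a rise of 2.77 ± 0.19 (limma adjusted p = 6.14e-10), and Ifngr2 rose by 2.40 ± 0.39. Ifnar1, a chain of the type I interferon receptor, rose by 1.70 ± 0.18, and the signal carriers Stat3 and Jak2 by 1.58 ± 0.28 and 0.77 ± 0.20. The members that fell were Il17ra, an interleukin 17 receptor chain, with -0.54 ± 0.17 and Il6st, the shared receptor chain gp130, picked after its value was seen, with -0.48 ± 0.16. The call for Il17ra ended without untreated replicate 1 (-0.46) or treated replicate 3 (-0.25), and that for Il6st without untreated replicates 1 (-0.49) or 3 (-0.42) or any 1 of the 3 treated arrays (-0.53 to -0.45). Of 24 interferon-inducible genes 4 rose and 1 fell (20.8%, close to the 22.3% of all genes), with a median of -0.05, and the number that rose was 2 without treated replicate 2, while the number that fell was 3 without treated replicate 1. Irf1, a transcription factor of this response, had 10.4, 9.69 and 9.44 in treated cells, against 8.60, 8.48, 8.39 and 8.48 in untreated cells, a rise of 1.34 ± 0.34, and its relative Irf8 rose by 2.04 ± 0.35. The GTPase gene Igtp rose by 1.95 ± 0.58 and the antiviral gene Ifit1 by 1.22 ± 0.43. The call for Igtp ended without treated replicate 1 (1.78) or 2 (1.89), and that for Ifit1 without untreated replicate 1 (1.09), 2 (1.11) or 3 (1.27) or treated replicate 2 (1.15) or 3 (0.97). Tap2, a subunit of the peptide transporter for antigen presentation, fell with -1.46 ± 0.15.

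Of 14 tested NF-kB genes 5 rose and 1 fell (42.9% against 22.3% of all genes), with a median of 0.27. Nfkbia, the inhibitor that holds NF-kB in the cytoplasm, had 7.21, 7.50 and 7.75 in treated cells, against 8.83, 8.64, 8.91 and 9.02 in untreated cells, and was the member that fell. Bcl10, an adaptor that activates the pathway, rose by 1.15 ± 0.20, and Nfkbiz, a nuclear regulator, by at least 1.55. Relb, an NF-kB subunit, rose by 1.09 ± 0.31, the inhibitor gene Nfkbie by 1.11 ± 0.31, and Tnfaip3, which encodes the inhibitor A20, by at least 0.60. The call for Relb ended without untreated replicate 3 (0.92) or treated replicate 1 (0.74), that for Nfkbie without treated replicate 3 (0.96), and that for Tnfaip3 without any 1 of the 7 arrays but treated replicate 1 (fitted values 0.76 to 0.90). The number that rose was 3 without untreated replicate 3 or treated replicate 3.

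Metabolic and stress genes changed in places. Slc2a3, a glucose transporter, had 11.8, 11.6 and 11.3 in treated cells, against 8.90, 8.68, 7.83 and 8.11 in untreated cells, a rise of 3.19 ± 0.31. With the hexokinase gene Hk2 it made up the 2 of 20 tested glucose genes that passed, both higher (10.0%). Of all genes 22.3% passed in either direction and 9.05% were higher. Hk2 rose by 1.16 ± 0.33, and its call ended without treated replicate 2 (1.04). In cholesterol metabolism 5 of 17 genes rose and none fell (29.4% against 22.3% of all genes in either direction and 9.05% higher). Without treated replicate 3 the number that rose was 3. Those that rose included the sterol carrier Stard4 with 1.43 ± 0.23, the mevalonate pathway kinase Pmvk with 1.37 ± 0.20 and the master regulator Srebf2 with 0.83 ± 0.22. The synthesis enzymes Cyp51 and Sc5d rose by 1.30 ± 0.35 and 1.03 ± 0.31. The call for Cyp51 ended without treated replicate 3 (1.11), and that for Sc5d without untreated replicate 2 (0.96) or treated replicate 2 (0.92) or 3 (0.94). In the list of unfolded protein, ATF4 and amino acid genes 8 of 36 members rose and 3 fell (30.6% against 22.3% of all genes), with a median of 0.19. Ppp1r15a, or GADD34, which directs the removal of phosphate from the initiation factor eIF2 alpha, had 9.39, 9.58 and 9.26 in treated cells, against 7.01, 6.96, 6.84 and 6.08 in untreated cells, a rise of 2.69 ± 0.24. Eif2ak3, the kinase PERK that adds the same phosphate, rose by 2.06 ± 0.16 and Ddit3, the factor CHOP, by 1.54 ± 0.27. The amino acid transporters Slc1a4 and Slc1a5 fell with -1.19 ± 0.28 and -1.05 ± 0.14, and Shmt1, an enzyme of serine metabolism picked after its value was seen, with -0.95 ± 0.16. The call for Shmt1 ended with the mean of all its probe sets (-0.70).

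Of 19 tested chaperone genes 5 rose and none fell (26.3% against 22.3% of all genes in either direction and 9.05% higher). They were Dnaja1, a partner of HSP70, with 0.73 ± 0.19, its relatives Dnajb6 with 0.68 ± 0.14 and Dnajb1 with 0.59 ± 0.12, the HSP70-interacting cochaperone St13 with 0.49 ± 0.11, and Hspa4, an HSP110-type chaperone, with 0.29 ± 0.10. The direction for Hspa4 turned with the mean of all its probe sets (-0.40, limma adjusted p = 0.119), and its call ended without untreated replicate 1 (0.27) or 3 (0.25) or any 1 treated array (0.27 to 0.32). Of 22 lysosome and autophagy genes 3 rose and none fell (13.6% against 22.3% of all genes in either direction and 9.05% higher). They were Atg12, a conjugate of the autophagy machinery, with 1.33 ± 0.15, the cargo receptor Sqstm1 with 0.74 ± 0.13, and Map1lc3b, the LC3 protein of autophagosome membranes, with 0.49 ± 0.11, a call that ended with the mean of all its probe sets (0.09). Of 36 tested nuclear-encoded respiratory chain genes 0 passed in limma (0% against 22.3% of all genes, and 2 had an unadjusted p under 0.05). Of 27 ribosomal protein genes 1 passed (3.70% against 22.3%), Rps6 with 0.46 ± 0.12. Both lists had medians near that of all genes, 0.04 and 0.05. Among granule genes, Srgn, the proteoglycan that packs granzymes, rose by 1.39 ± 0.21 beside Gzmb, as 2 of 9 tested members (22.2% against 22.3% of all genes in either direction and 9.05% higher). Of 14 chemokine receptor and adhesion genes 42.9% passed, and 3 rose, Klf2, Selplg, the selectin ligand PSGL-1, with 1.10 ± 0.20 and the integrin chain Itgb2 with 0.44 ± 0.13, and 3 fell, the integrin chain Itga6 with -0.59 ± 0.13, the chemokine receptor Cxcr4 with -0.59 ± 0.19 and the adhesion molecule Icam2 with -0.36 ± 0.12. The call for Itgb2 ended without untreated replicate 3 (0.37) or 4 (0.40) or treated replicate 1 (0.32), and those for Cxcr4 and Icam2 without untreated replicate 3 (-0.55 and -0.27) or 4 (-0.50 and -0.36) or any 1 treated array (-0.63 to -0.53 and -0.40 to -0.32). The number that fell was 1 without untreated replicate 3 or 4, or without any 1 of the 3 treated arrays.

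**Figure D4:**
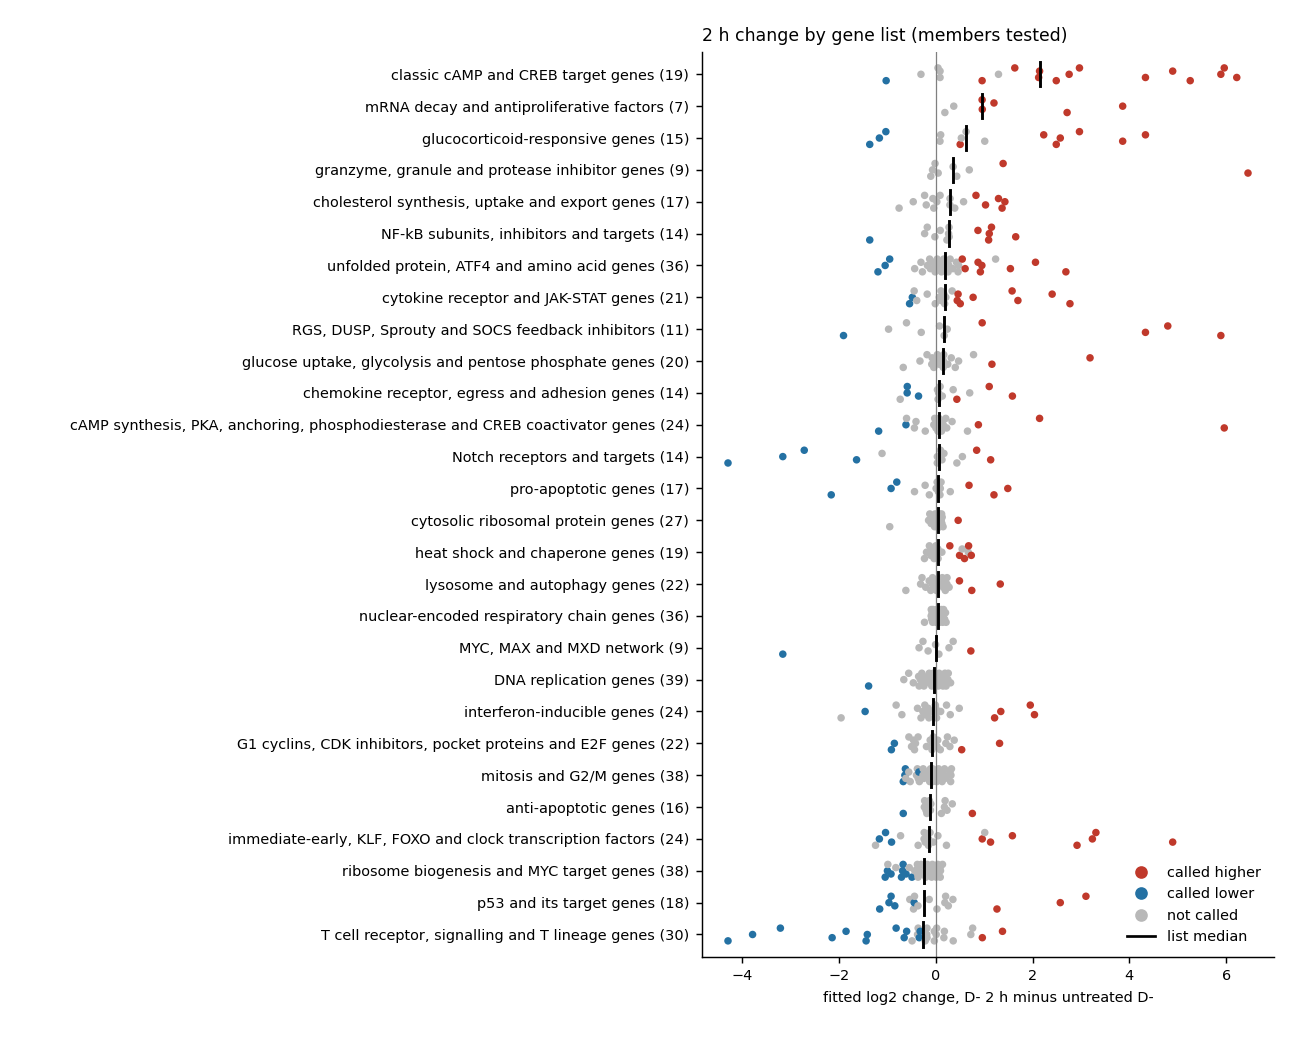
Fitted log2 changes (D- 2 h minus untreated D-) of every tested member of 28 gene lists, coloured by call, with a black bar at each list median and lists ordered by it. The list of classic cAMP and CREB targets has the highest median (2.15) and the T cell list the lowest (-0.27), and 36 respiratory chain genes lie close to 0.

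The group means of the genes named above followed different courses over time in D- cells, described without a test between times. Fos averaged 4.09 ± 0.83 in untreated cells (SD, n = 4), 10.3 ± 0.19 at 2 h, 7.51 ± 0.09 at 6 h and 7.31 ± 0.38 at 24 h (SD, n = 3 each). Crem averaged 4.35, 10.3, 8.77 and 7.27 at those times, Nr4a1 7.42, 12.7, 10.6 and 9.75, and Zfp36 6.84, 10.7, 8.33 and 7.90, so that the 2 h mean was the highest of the 4 for each. Abcb1a averaged 5.97, 9.52, 9.49 and 8.36, Sgk1 7.91, 10.9, 10.9 and 10.4, and Tex2 7.95, 11.4, 11.3 and 10.9, with little drop between 2 and 6 h. Gzmb averaged 6.82, 13.3, 14.1 and 12.1, Ramp3 2.38, 8.90, 10.3 and 6.23, and Maged1 9.31, 13.3, 14.3 and 14.3, with means at 6 h above those at 2 h. Of the genes that fell, Myc averaged 10.5, 7.36, 8.87 and 9.00 and Bid 10.6, 8.41, 9.58 and 10.5, with the lowest mean at 2 h, and Bcl11b averaged 11.9, 10.1, 11.0 and 12.2. Ptcra averaged 11.6, 7.33, 5.38 and 7.16 and Il10 8.78, 5.88, 3.98 and 6.92, with the lowest mean at 6 h. The 24 h means of Crem, Ramp3 and Ptcra were loose, with SDs of 1.57, 1.46 and 1.47.

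Whether the 2 h response of D- cells differed from that of WT cells was tested as an interaction in the same fit, and few genes passed. The titles of the treated WT arrays call them untreated, while their source and description name the analogue and the time, by which they were grouped. Of 7435 genes 18 were called (0.242%), 4 with a D- change above and 14 with one below the WT change, and 443 had an unadjusted p under 0.05. Across the 6890 genes with all 4 group means at or above log2 5, the D- and WT changes correlated at Pearson r = 0.885, a description over genes, which are not independent, with GCRMA intensities of both lines in 1 table. The number called depended on single arrays. It was 4 without WT 2 h replicate 2 or 3 and 32 without WT 2 h replicate 1. It was 7 and 8 without D- 2 h replicates 2 and 3, 10, 9 and 11 without untreated D- replicates 1, 2 and 4, and 10 without untreated WT replicate 1.

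Palld, the actin-binding palladin, was the clearest D- gain by the naming rule. It had 9.71, 9.09 and 9.09 in treated D- cells, against 7.25, 6.66, 6.41 and 6.39 in untreated D- cells, while WT cells averaged 6.41 ± 0.05 at 2 h (SD, n = 3) and 6.37 ± 0.14 untreated (SD, n = 4). Its change was 2.62 ± 0.28 in D- and 0.04 ± 0.28 in WT cells, a difference of 2.58 ± 0.40 (limma adjusted p = 0.00543). Grb7, a receptor tyrosine kinase adaptor, and Tnfsf4, the costimulatory ligand OX40L, had group means under log2 5 and were added after their values were seen. Grb7 had 8.61, 7.66 and 7.75 in treated D- cells, against 3.00, 3.04, 3.08 and 3.13 in untreated D- cells, and WT means of 3.32 ± 0.33 at 2 h and 3.02 ± 0.05 untreated. Tnfsf4 had 7.54, 8.17 and 8.23 in treated D- cells, against 4.62, 4.70, 5.14 and 5.00 in untreated D- cells, and WT means of 4.59 ± 0.12 at 2 h and 4.53 ± 0.11 untreated. Their rises in D- cells were at least 3.01 and 2.98, and the differences, fitted values with group means under 5, both had a limma adjusted p = 2.4e-07.

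Of the 14 genes with a D- change below the WT change, some rose in WT cells and did not pass in D- cells. Slamf1, a lymphocyte receptor of the SLAM family, changed by 0.52 ± 0.26 in D- and 2.35 ± 0.26 in WT cells, a difference of -1.83 ± 0.37, and Txndc16 by 0.15 ± 0.18 in D- and 1.45 ± 0.18 in WT cells, a difference of -1.30 ± 0.25. C4bp, added after its values were seen, lay under log2 5 in both D- groups, at 4.13 ± 0.35 at 2 h and 4.06 ± 0.31 untreated, and averaged 6.80 ± 0.34 at 2 h and 3.96 ± 0.08 untreated in WT cells. Others fell in D- cells and did not pass in WT cells, such as Cipc, an inhibitor of the circadian CLOCK protein, with -1.26 ± 0.16 in D- and -0.11 ± 0.16 in WT cells, and Ptpn14, a tyrosine phosphatase, with -1.13 ± 0.14 in D- and -0.10 ± 0.14 in WT cells. Sgip1, an endocytic protein, rose in both, with 11.2, 11.5 and 10.7 in treated D- cells, against 5.41, 4.99, 5.41 and 5.66 in untreated D- cells. Its change was 5.75 ± 0.29 in D- cells and at least 6.67 in WT cells, whose untreated mean of 3.66 lay under 5. Of the 18 calls, those for Palld, Grb7, Tnfsf4 and C4bp held with each of the 14 D- and WT arrays left out in turn. The call for Slamf1 held in 2 of these 14 fits, Cipc and Ptpn14 in 4 each, Txndc16 in 8 and Sgip1 in 11, with differences from -1.94 to -1.73, -1.29 to -1.04, -1.14 to -0.94, -1.41 to -1.19 and -2.61 to -2.04 in that order.

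**Figure D5:**
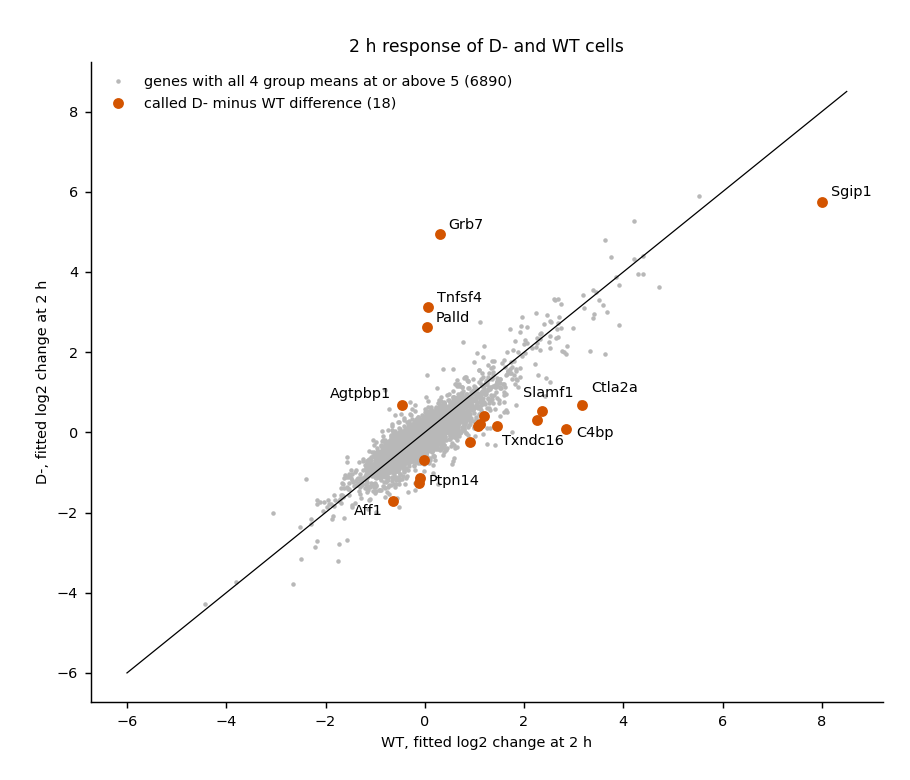
Fitted log2 change at 2 h in D- cells (vertical axis) against WT cells (horizontal axis) for 6890 genes with all 4 group means at or above log2 5 (grey), with the 18 genes called for a D- minus WT difference in orange and a line of equal change. Grb7, Tnfsf4 and Palld lie above the line near a WT change of 0, and C4bp lies below it near a D- change of 0.

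Other strong responders were not called for a difference, although a p that misses the threshold does not show equality. Some had near-equal changes. Olig3 changed by 4.40 ± 0.31 in both D- and WT cells, Zfp36 by 3.86 ± 0.21 in D- and 3.85 ± 0.21 in WT cells, Dusp1 by 4.33 ± 0.42 in D- and 4.22 ± 0.42 in WT cells, and Tsc22d3 by 2.23 ± 0.19 in D- and 2.26 ± 0.19 in WT cells. Bcl2l11 changed by 1.49 ± 0.22 in D- and 1.72 ± 0.22 in WT cells, a difference of -0.24 whose limma adjusted p = 0.999. In others the changes or bounds lay apart, where a bound, given as "at least", is a floor on the change and not a fitted value. Gzmb changed by 6.45 in D- cells and by at least 1.70 in WT cells, whose untreated mean lay under log2 5 (limma adjusted p = 0.477 for the fitted difference). Ramp3 rose by at least 3.90 in D- and at least 1.53 in WT cells (limma adjusted p = 0.159 for the fitted difference), and Amot by 4.54 in D- and at least 5.47 in WT cells. Dusp10 changed by 4.79 in D- and 3.63 in WT cells, Rag1 by -3.79 in D- and -2.66 in WT cells, and Rag2 by -3.21 in D- and -1.74 in WT cells, with limma adjusted p = 0.597, 0.447 and 0.158 for the differences in that order. The bounds for P2rx1 were -3.63 in D- and -1.66 in WT cells.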

How the data were processed

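RNA of S49 cells was hybridised to 26 single-colour Affymetrix mouse arrays, and the 3 arrays of D- cells after 2 h and the 4 of untreated D- cells were compared. Per the labels, the authors computed the deposited GCRMA intensities, which are background-corrected and normalised on a linear scale from 2 to 83530.7 (array medians 41.6 to 45.4); the version of GCRMA, and whether all arrays were run together, is not given in the sources used. Log2 was taken with no pseudocount or further normalisation. Of 22690 probe sets, 64 controls were left out, and of the rest 20380 have 1 symbol, 691 several and 1555 none; only those with 1 symbol name genes. The 12724 probe sets at log2 5 or more on at least 3 arrays were fitted to 8 group means by lmFit and eBayes of limma 3.58.1, run under R 4.3.3, adjusted by Benjamini-Hochberg, and each gene stands for its brightest probe set. No probe's level was set against another's. The number of arrays limits the precision.

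Genes were named by rule: in each direction the 25 called genes with the largest change and no overlap between groups, of each list the called members, at most 6, with the largest change, in each direction the 8 largest called differences between lines with group means of at least log2 5, and a set of core genes. Not every gene that met a rule is described. For the line differences, Agtpbp1, Ctdsp2, Aff1, Carhsp1 and Tnrc6b met it and were left out of the results. Their calls held in 8, 11, 6, 11 and 3 of 14 fits that each left out 1 array. Agtpbp1 changed by 0.68 ± 0.15 in D- and -0.45 ± 0.15 in WT cells, a difference of 1.14 ± 0.22. Members, lists and rules were chosen with earlier results of these data known. The fit was tested on simulated data. Alternatives covered the eBayes settings, array weights, arrays in the fit, normalisation, filter, probe set rule, blocks and leaving out each array. Some genes of interest are not reported here where no probe set names them alone.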

Additional observations from a re-analysis of the deposited data

Results flagged for a closer look

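Among the genes named, an untreated D- array stood apart from the other 3 by Dixon's test in 3 of 161 checked, where chance alone gives about 1 in 20. The highest untreated value of Cd53 was 7.67, in replicate 1. The highest untreated value of Klf2 was 5.88. The lowest untreated value of Lmna was 3.34, in replicate 3, which is below the level used as a bound.

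The D- and WT responses at 2 h differed by the interaction test for 10 of the genes described. The D- minus WT difference in log2 change was 4.64 for Grb7, 3.05 for Tnfsf4 and 2.58 for Palld. It was -2.76 for C4bp, -2.48 for Ctla2a, -2.26 for Sgip1, -1.83 for Slamf1, -1.30 for Txndc16, -1.15 for Cipc and -1.03 for Ptpn14. Ctla2a, picked after its values were seen, did not pass in D- cells and rose in WT cells, and its difference was called in 3 of the 14 fits that left out an array. Grb7, Tnfsf4, C4bp, Ctla2a and Sgip1 each have a group mean under log2 5, where the fitted difference uses the values as they stand.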

How the results depend on the processing

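The number of genes called between treated and untreated D- cells stayed within 1.5 times of 1658 under every alternative tried except the fit within array cluster 1, which gave 447 (227 higher and 220 lower) from 3 arrays. With 1 array left out it lay between 1229 and 1496 (514 to 597 higher, 715 to 907 lower). The replicate numbers did not pair the compared samples throughout (correlations of deviations 0.477, -0.244 and 0.221 for replicates 1, 2 and 3). With a replicate block 2001 genes were called. With the array cluster as a block 2219 were called (853 higher and 1366 lower). The clusters were drawn from the within-group deviations of these same arrays. As a block they therefore lower the spread by construction, so calls gained with that block, here and below, are no added evidence. Fits within a cluster leave out that spread as well. The D- minus WT difference depended more on the fit. Against 18 calls (4 above, 14 below), array weights gave 72 (9 and 63), only the groups compared 11 (6 below), the replicate block 36 (30 below), the array cluster as a block 48 (42 below), array cluster 1 alone 1 (1 and 0), array cluster 2 alone 59 (16 and 43), and a filter on the 7 D- arrays compared 9 below. With 1 array left out it lay between 4 and 32 (3 to 6 above, 1 to 26 below). The cause was not tested. Of the line differences, calls ended with only the groups compared for Cipc, Ctla2a, Ptpn14 and Sgip1, with no filter for Ctla2a and Slamf1, and with quantile normalization for Ptpn14. Of 161 genes examined, 94 kept direction and side of the threshold under every alternative. The fit within array cluster 1, which leaves 1 treated D- array, ended more of their calls than any other alternative. The fit within array cluster 2 ended 7. Hspa4 reversed, at -0.40 with the mean of all its probe sets. With all arrays kept, calls also ended with no filter on low signals for Cdc25b, Cxcr4, E2f4, Fas, Icam2, Ifit1, Il6st, Tnfaip3, Tob1 and Ung, with only the D- arrays or the groups compared for Cdc25b, E2f4, Hspa4, Icam2, Il17ra, Itgb2, Relb and Tob1, and with another scaling for Cdc25b, Hspa4, Icam2 and Ung. The replicate block ended the call for Cdc25b, and it gave calls for Nr3c1 and Slamf1. Nr3c1 also passed with array weights, the array cluster as a block and the mean of its probe sets, and Slamf1 with only the groups compared. Signals near log2 5 limit the bounds.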

Other observations

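In 4 genes replicate 1 lay at least 1 log2 unit above every other array of its group in both D- groups, and the pattern was picked after the values were seen. Gzmb and Cd53, described in the results, were called. Fabp4, a fatty acid binding protein, had 11.2, 8.98 and 9.70 in treated cells, against 12.1, 10.5, 10.2 and 9.93 in untreated cells, and was not called (limma adjusted p = 0.424). Bhlhe40, a clock-linked repressor, had 6.00, 4.94 and 4.84 in treated cells, against 7.79, 6.70, 5.71 and 5.81 in untreated cells, and was not called (limma adjusted p = 0.0965).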
